A study of Rattus norvegicus with 6 samples.

Results

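The transcripts described here are the long noncoding RNAs (lncRNAs) of the rat INS-1 beta cell line whose identifier comes from Ensembl. They were chosen by the prefix ENSRNOT of the identifier alone, which gave 682 of the 18649 lncRNA transcripts with a value in the 6 samples. The other 17967 carry an identifier of NONCODE, a database of noncoding transcripts, and served as the comparison set. The total RNA of INS-1 cells was sequenced in 2 groups. The study describes the growth medium of the line but does not state whether control cells (Con, n = 3) received a vehicle. HG/PA cells (n = 3) were exposed to 25 mM glucose and 0.5 mM palmitate for 24 h, a model of glucolipotoxicity. INS-1 is 1 insulinoma line, so all 6 samples share its genotype, and the study describes the 3 samples of a group as biological triplicates. The labels name no separate cultures, so the p-values measure the spread between these samples. The lists hold lncRNAs only, so markers of beta cells could not be read from them, and in bulk RNA fewer cells with a transcript cannot be told apart from less transcript per cell.

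A lncRNA is an RNA of more than about 200 nucleotides (nt) that is not translated into a long protein. Some stay in the nucleus and act on chromatin or on neighbouring genes, and others act in the cytoplasm by binding proteins or microRNAs. Ensembl annotates rat transcripts as gene models that can hold several spliced isoforms per gene, while NONCODE collects noncoding transcripts from the literature and from other resources, many of them with a single exon. Most lncRNAs are expressed at far lower levels than messenger RNAs.

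The level of each transcript was given as FPKM, the number of fragments divided by the transcript length in kilobases and by the depth of the sample. The FPKM values corresponded to whole fragments, and the implied totals were 12491547 to 13770879 fragments per sample. Of these, 1128838 to 1331559 fragments lay on listed lncRNAs and 77416 to 90338 on Ensembl transcripts. Per transcript the depth was low. The median Ensembl transcript received 2.83 fragments per sample against 12.3 for the median NONCODE transcript, and 487 Ensembl transcripts (71.4%) had fewer than 10 fragments on average, against 45.0% of the NONCODE transcripts.

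The Ensembl transcripts were mostly spliced and spread over long stretches of the genome. In 654 of them (95.9%) the transcript was shorter than its genomic span, the sign of at least 1 intron, whereas 9444 NONCODE transcripts (52.6%) were spliced by this measure. The remaining 28 Ensembl transcripts (4.11%) were unspliced. The median length was 792.5 nt for Ensembl and 659 nt for NONCODE, and the median span was 4922.5 nt and 1394 nt. A span of 10 kb or more was found in 226 Ensembl transcripts (33.1%) and in 15.0% of the NONCODE transcripts. Both ends of the length range differed as well: 17 Ensembl transcripts were shorter than 200 nt, with a minimum of 119 nt, and no NONCODE transcript was below 201 nt. All 17 of these short transcripts were spliced. The longest Ensembl transcript, ENSRNOT00000081689 on chromosome 10 (chr10:106078-120050, assembly Rnor_6.0), measured 6316 nt, and the longest NONCODE transcript 57691 nt. ENSRNOT00000057756 on chromosome 6 had the widest span of the Ensembl set, 380618 nt (chr6:114760440-115141057), for a transcript of 3303 nt.

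The members lay on all 21 chromosomes listed, from 13 on chromosome 11 to 74 on chromosome 1. Chromosomes X and 20 held a larger part of the Ensembl set than of the NONCODE set. Chromosome X carried 43 Ensembl transcripts, 6.30% of the set against 2.80% of NONCODE, and chromosome 20 carried 39, 5.72% against 2.36%. Chromosome 10 was the reverse case, with 28 Ensembl transcripts that made up 4.11% of the set against 8.23% of NONCODE. These shares are of transcripts with a value in at least 1 of the 6 samples. The span of 194 Ensembl transcripts (28.4%) overlapped that of another listed lncRNA, and the remaining 488 overlapped none. Of the overlapping ones, 114 met a NONCODE transcript and 109 another Ensembl transcript, so some met both.

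**Figure D1:**
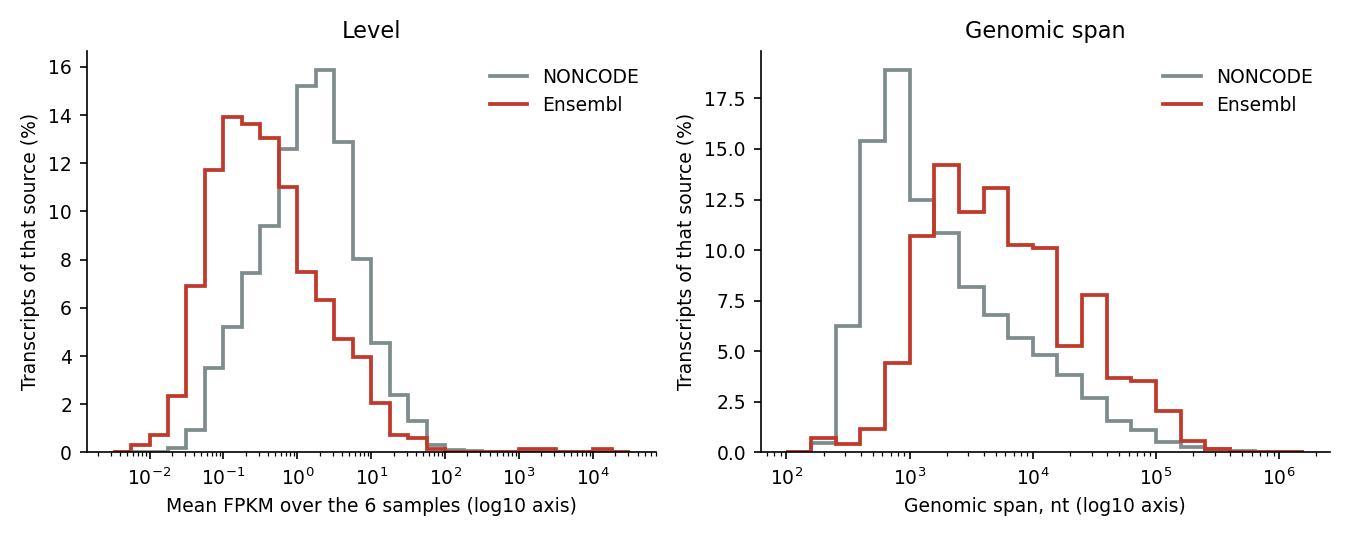
Left, mean FPKM over the 6 samples on a log10 axis; right, genomic span in nt on a log10 axis; the vertical axes give the percent of the transcripts of each source, with Ensembl in red and NONCODE in grey. The Ensembl set lies at lower levels, with a median of 0.320 FPKM against 1.51, and at wider spans, with a median of 4922.5 nt against 1394 nt; the small steps at the far right of the left panel are its 3 transcripts above 1000 FPKM and a few abundant NONCODE transcripts.

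Ensembl transcripts were expressed at lower levels than NONCODE transcripts in every sample. Their median FPKM was 0.302, 0.340 and 0.311 in Con against 0.340, 0.318 and 0.335 in HG/PA. The NONCODE median was 1.49, 1.52 and 1.51 in Con against 1.37, 1.35 and 1.36 in HG/PA. The ranges of the 2 sources were thus far apart in all 6 samples. On the log2 scale the ratio of the medians was -2.14 ± 0.13 (SD, n = 6), a NONCODE median 4.42-fold higher, and an exact two-sided sign-flip permutation test over the samples gave p = 0.03125, the smallest value 6 samples allow.

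The difference between the sources depended on transcript structure. Among spliced transcripts with a span under 10 kb (428 Ensembl transcripts) the log2 ratio was -2.17 ± 0.07, and among those of 10 kb or more (226 transcripts) it was -1.78 ± 0.22 (SD, n = 6). Among unspliced transcripts it was 0.59 ± 0.20, so that the median of the 28 Ensembl transcripts was 1.51-fold higher than that of the 8523 unspliced NONCODE transcripts. Each of the 3 ratios had the same sign in all 6 samples (exact sign-flip permutation test, p = 0.03125 each). The unspliced Ensembl transcripts were heterogeneous: 11 of the 28 had fewer than 10 fragments on average, while the 3 most abundant members of the whole set were also unspliced.

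The ratio of the sources was also compared between the groups. The log2 ratio was -2.25 ± 0.07 in Con and -2.04 ± 0.04 in HG/PA (SD, n = 3 each), and the groups did not overlap. The exact two-sided permutation test gave p = 0.1, the smallest value that 3 against 3 samples allow. The Ensembl medians of the groups overlapped (0.318 ± 0.020 against 0.331 ± 0.012 FPKM, exact permutation p = 0.3), whereas the NONCODE median was lower in all HG/PA samples (1.51 ± 0.018 against 1.36 ± 0.013 FPKM, exact permutation p = 0.1). The ratio within a sample does not depend on the scaling of the samples, but which median moved does: after rescaling by the median of ratios, the median log2 fold change of the tested rows was 0.05 for Ensembl and 0.01 for NONCODE, in place of -0.04 and -0.12.

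**Figure D2:**
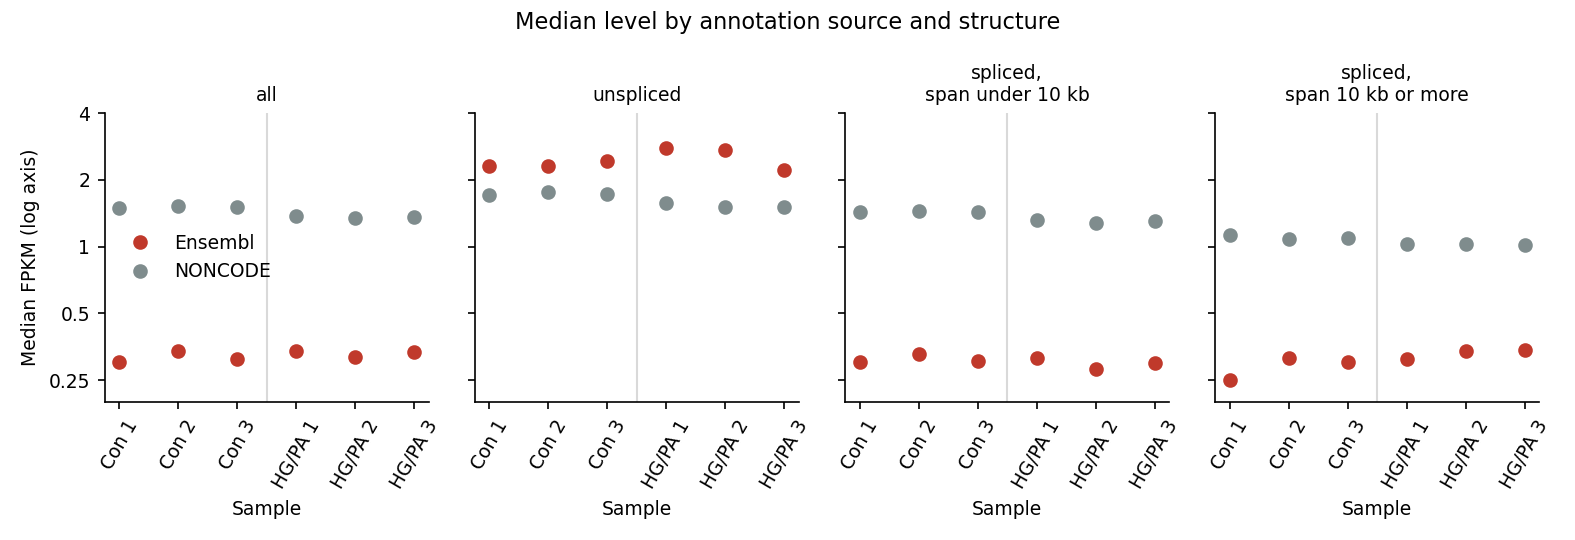
Median FPKM (log axis) of the Ensembl (red) and NONCODE (grey) transcripts in each of the 6 samples, for all transcripts and by structure; the grey line separates Con from HG/PA. Ensembl medians lie below NONCODE medians in every sample for spliced transcripts and above them for unspliced transcripts, where the median of the 28 Ensembl transcripts ranges from 2.23 to 2.78 FPKM over the samples and the NONCODE medians from 1.51 to 1.76 FPKM.

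Most members were rare and a few were very abundant. The mean over the 6 samples was below 0.1 FPKM for 150 members, between 0.1 and 1 for 352, between 1 and 10 for 153 and at 10 or more for 27. In all 6 samples, 389 members (57.0%) had a value above 0, against 83.6% of the NONCODE transcripts. The number of members above 0 was 556, 554 and 552 in Con against 564, 573 and 574 in HG/PA, so that every HG/PA sample listed more of them than any Con sample (exact permutation test, p = 0.1, the smallest possible). The percent of NONCODE transcripts above 0 was likewise higher in HG/PA, at 93.7% ± 0.15 against 93.1% ± 0.19 (exact permutation p = 0.1). With a minimum of 3 fragments, the counts of members were 353, 356 and 337 in Con against 356, 367 and 363 in HG/PA, and the groups touched at 356 (exact permutation p = 0.2). In Con samples only, 17 members were listed above 0, with at most 4 fragments in a sample, and in HG/PA samples only, 28 were, with at most 10 fragments in a sample. These were 2.49% and 4.11% of the members, against 1.32% and 1.76% of all listed lncRNAs.

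A group of 3 unspliced transcripts of about 300 nt stood far above the rest. ENSRNOT00000090903, 272 nt on chromosome 5 (chr5:58994682-58994953), measured 14717, 14595 and 15157 FPKM in Con against 14077, 15065 and 14960 FPKM in HG/PA. The groups overlapped, and the log2 fold change was -0.01 (SE 0.03; limma, adjusted p = 0.88). It took 60.2% to 63.3% of all Ensembl fragments in a sample, so a sum over the Ensembl set is largely a value of this transcript. Its position overlaps the lower-coordinate end of the 1590-nt NONRATT022213.2, which held only 32 to 64 fragments per sample.

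The second most abundant member, ENSRNOT00000088597 (300 nt, chr6:91680229-91680528), measured 1877, 1957 and 1583 FPKM in Con against 1721, 2074 and 2030 FPKM in HG/PA. Its groups overlapped as well, with a log2 fold change of 0.11 (SE 0.10; limma, adjusted p = 0.65). The third, ENSRNOT00000079055 (331 nt, chr8:85480292-85480622), measured 1426, 1419 and 1151 FPKM in Con against 1022, 1102 and 1206 FPKM in HG/PA. Its mean was lower in HG/PA, with a log2 fold change of -0.26 (SE 0.10; limma, adjusted p = 0.24), but HG/PA 3 lay above Con 3. The 3 transcripts together took 76.2% to 77.8% of the Ensembl fragments. FPKM divides by the full length of a transcript, which is an uncertain measure for transcripts close to the size of a sequenced fragment, so these 3 levels are not strictly comparable with those of long transcripts.

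The next 7 members by mean FPKM were spliced and measured 23.4 to 68.7 FPKM in single samples. ENSRNOT00000075924 (chr20:47253664-47263390) and ENSRNOT00000074532 (chr20:47225619-47263389) overlap. They measured 54.3 ± 6.01 and 54.0 ± 4.68 FPKM in Con against 61.1 ± 6.65 and 57.5 ± 4.86 FPKM in HG/PA (SD, n = 3). Their summed fragments were 1522, 1527 and 1365 in Con against 1534, 1724 and 1659 in HG/PA. The other 5 were ENSRNOT00000088540 on chromosome 3, ENSRNOT00000087518 on chromosome 2, ENSRNOT00000076153 on chromosome 13, ENSRNOT00000087471 on chromosome 20 and ENSRNOT00000083856 on chromosome 10. ENSRNOT00000087518 was the steadiest of them, at 39.6 ± 1.69 FPKM in Con against 39.2 ± 1.76 FPKM in HG/PA. None of the 7 passed the test, with adjusted p-values of 0.32 to 0.95 (limma). Of the 27 members with 10 FPKM or more, 0 passed a fold change of 2, whether with an adjusted or an unadjusted p. Among the 1564 tested NONCODE transcripts at this level, 46 (2.94%) passed with an adjusted p and 67 (4.28%) with an unadjusted p. At shares this small, 0 of 27 does not set the members apart. ENSRNOT00000076276 and ENSRNOT00000076902, which are among the 27, had an adjusted p under 0.05 at a fold change under 2 (limma).

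The part of the listed lncRNA fragments that fell on Ensembl transcripts was 6.78%, 6.86% and 7.01% in Con against 6.86%, 7.45% and 7.09% in HG/PA. The means were 6.89% ± 0.12 and 7.13% ± 0.30, the groups overlapped, and the difference of 0.249 percentage points was within the spread between samples (exact two-sided permutation test, p = 0.3). Without the 3 transcripts above 1000 FPKM the share was 1.71% ± 0.05 in Con against 1.71% ± 0.04 in HG/PA, with a difference of -0.00274 percentage points (exact permutation p = 1). That leave-out was chosen after the data were seen.

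The response to HG/PA was tested transcript by transcript with limma on log2(FPKM + 0.1), for rows with 0.1 FPKM or more in at least 3 samples. Fold changes on this scale understate the change of transcripts with low FPKM. The filter left 543 members (79.6%) and 17015 NONCODE transcripts (94.7%), and p-values were adjusted over all 17558 rows. The 139 members that were not tested had a mean of at most 0.716 FPKM. A fold change of 2 with an adjusted p under 0.05 was reached by 9 members (1.66% of those tested, where the share over all tested rows was 1.49%). Of these, 5 were upregulated (share over all rows 0.655%) and 4 were downregulated (0.832%). At an unadjusted p under 0.05 the count was 52 members (9.58%, against 6.49% over all rows), with 30 upregulated (2.59% over all rows) and 22 downregulated (3.9% over all rows). At any fold change, 13 members had an adjusted p under 0.05 (2.77% over all rows). The groups did not overlap, with HG/PA higher, in 55 members (10.1%, against 7.44% over all rows), and with HG/PA lower in 88 (16.2%, equal to the 16.2% over all rows).

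The surplus at the unadjusted threshold lay among sparse transcripts. Among members with 10 fragments or more on average, 8 of 195 (4.10%) passed a fold change of 2 at an unadjusted p under 0.05, against 5.41% of the NONCODE transcripts at this depth. Among those with fewer than 10 fragments, 44 of 348 (12.6%) passed, against 7.75% of NONCODE. The 2 sources were not at like depth within this class. Its median, untested transcripts included, was 1.5 fragments for Ensembl against 3.17 for NONCODE. The within-group SD of the log2 values of members had a median of 0.590 below 10 fragments, 0.309 from 10 to 50 and 0.153 at 50 or more. Of the tested members, 20 had passed the filter only through the 3 samples of 1 group, and such a transcript had to differ between the groups to be tested at all. They included 6 of the 9 members called with an adjusted p and 17 of the 52 called without adjustment. Among NONCODE transcripts, 117 of 17015 had passed in this way, and they included 52 of the 252 called with an adjusted p and 113 of the 1088 called without adjustment.

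**Figure D3:**
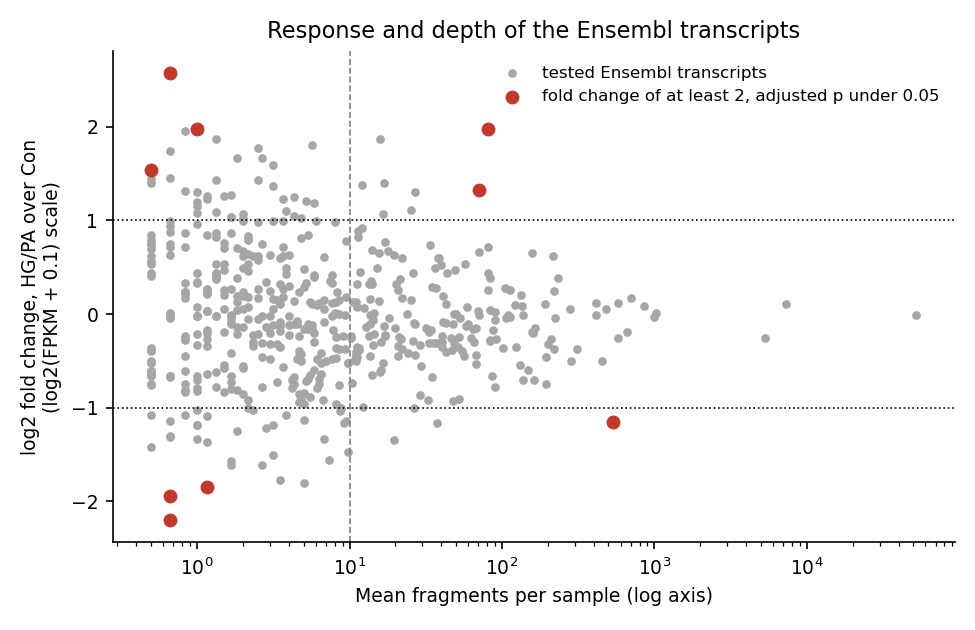
Mean fragments per sample (log axis) against the log2 fold change of HG/PA over Con for the 543 tested Ensembl transcripts (grey), with the 9 that passed a fold change of 2 and an adjusted p under 0.05 in red; dotted lines mark a fold change of 2 and the dashed line 10 fragments. At the far left lie 6 of the 9, with at most 3 fragments in any sample, and the other 3 lie to the right of the dashed line.

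Of the 9, 3 had enough fragments for a level in both groups. The clearest was ENSRNOT00000081779, a spliced transcript of 1489 nt on chromosome 4 (chr4:68440509-68449567) that overlapped no other listed lncRNA. It measured 1.71, 1.61 and 1.50 FPKM in Con against 5.89, 6.97 and 7.03 FPKM in HG/PA, from 35, 30 and 28 fragments and 111, 142 and 138 fragments. The lowest HG/PA value was more than 3 times the highest Con value. The mean rose 4.12-fold, from 1.61 ± 0.10 to 6.63 ± 0.64 FPKM (SD, n = 3), with a log2 fold change of 1.98 (SE 0.16; limma, adjusted p = 0.0044). Leaving out any 1 sample kept the log2 fold change between 1.93 and 2.06 and the adjusted p between 0.020 and 0.032.

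ENSRNOT00000076867, an unspliced transcript of 715 nt on chromosome X (chrX:62820485-62821199), measured 4.16, 5.15 and 3.57 FPKM in Con against 9.61, 11.5 and 11.2 FPKM in HG/PA. These values rested on 32 to 46 fragments in Con against 87 to 113 in HG/PA, and the groups were well separated. The mean rose 2.51-fold, from 4.30 ± 0.80 to 10.8 ± 1.04 FPKM, with a log2 fold change of 1.32 (SE 0.17; limma, adjusted p = 0.016). In each of 4 of the 6 fits that left out 1 sample the adjusted p was above the threshold, at 0.069 without Con 1, 0.052 without HG/PA 1, 0.074 without HG/PA 2 and 0.063 without HG/PA 3, with log2 fold changes of 1.20 to 1.46 over all 6. Without a variance trend in limma it was 0.058.

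The 1 well covered transcript that fell was ENSRNOT00000090380, an Ensembl model of 5614 nt on chromosome 17 (chr17:7602304-7619181). It measured 9.35, 11.2 and 9.70 FPKM in Con against 4.40, 3.50 and 5.73 FPKM in HG/PA, from 682 to 786 fragments and 269 to 424 fragments. Every HG/PA sample was below every Con sample. The mean fell from 10.1 ± 0.99 to 4.54 ± 1.12 FPKM, which is 2.22-fold lower, with a log2 fold change of -1.16 (SE 0.20; limma, adjusted p = 0.038). The call was kept in only 1 of the 6 fits without 1 sample, the fit without HG/PA 3 (adjusted p = 0.041); without Con 1, Con 2, Con 3, HG/PA 1 or HG/PA 2 the adjusted p was 0.091 to 0.128. After rescaling the samples by the median of ratios the log2 fold change was -1.03 and the adjusted p 0.056, and the adjusted p was 0.055 after quantile normalization and 0.106 without a variance trend in limma. Its lower-coordinate end overlaps NONRATT012755.2, which held 26, 10 and 34 fragments in Con against 11, 29 and 3 in HG/PA.

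All tested rows together had a median log2 fold change of -0.11, which rescaling by the median of ratios moved to 0.01. Relative to that median, the log2 fold changes of the 3 transcripts were 2.09 for ENSRNOT00000081779, 1.44 for ENSRNOT00000076867 and -1.04 for ENSRNOT00000090380.

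The other 6 calls rested on almost no fragments, and no fold change is given for them since neither group exceeded 3 fragments in a sample. Of these, 3 were seen in HG/PA only. ENSRNOT00000088267, 195 nt on chromosome 19, had 1, 1 and 2 fragments in HG/PA (limma, adjusted p = 0.020), ENSRNOT00000085500, 517 nt on chromosome 3, had 2 in each HG/PA sample (adjusted p = 0.022), and ENSRNOT00000081464, 398 nt on chromosome 5, had 1 in each (adjusted p = 0.044). None of the 3 had a fragment in Con. They passed the filter only through the HG/PA samples, so each had to differ between the groups to be tested. In the fit without a filter their adjusted p was 0.026, 0.031 and 0.062 in the same order (limma), and ENSRNOT00000081464 lost its call.

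The other 3 of these 6 were seen in Con only. ENSRNOT00000088794, 275 nt on chromosome 18, and ENSRNOT00000084962, 350 nt on chromosome 6, both had 1, 2 and 1 fragments in Con (limma, adjusted p = 0.033 and 0.044). ENSRNOT00000092014, 688 nt on chromosome 1, had 2, 3 and 2 (adjusted p = 0.035). In the fit without a filter the adjusted p of these 3 was 0.043, 0.056 and 0.047 in the same order (limma), and ENSRNOT00000084962 lost its call. ENSRNOT00000079518, 464 nt on chromosome 1, had 1 fragment in each Con sample and none in HG/PA, and did not reach the adjusted threshold (adjusted p = 0.054). A count of 0 allows up to 3 fragments in a sample, so no single sample of the 7 was beyond that limit. In limma-voom on the fragments, ENSRNOT00000085500 and ENSRNOT00000092014 had an adjusted p of 0.042 each, and the other 5 had 0.11 to 0.12. That fit used the same filter, which all 7 passed only through the samples of 1 group, so it gives no separate support. Without 1 Con sample the adjusted p of ENSRNOT00000085500 was 0.066 to 0.074 (limma). Without 1 HG/PA sample that of ENSRNOT00000092014 was 0.103 to 0.107. None of the 7 overlapped another listed lncRNA.

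Another 4 members had an adjusted p under 0.05 with a fold change under 2; they were picked after their values were seen. The first 3 rose. ENSRNOT00000076276, 232 nt on chromosome 14 (chr14:60060072-60069864), measured 10.6, 10.4 and 9.29 FPKM in Con against 14.3, 16.7 and 15.0 FPKM in HG/PA (log2 fold change 0.60, SE 0.11; limma, adjusted p = 0.044). Its span overlaps 3 NONCODE transcripts with log2 fold changes of -0.26, -0.05 and 0.29 (limma, adjusted p = 0.84, 0.98 and 0.59). ENSRNOT00000076902, 987 nt on chromosome 13 (chr13:77979829-77988006), measured 10.2, 9.57 and 8.65 FPKM in Con against 13.2, 16.5 and 15.3 FPKM in HG/PA (log2 fold change 0.66, SE 0.12; adjusted p = 0.048). In both, the groups were separate and the mean rose 1.52-fold and 1.59-fold. ENSRNOT00000085939, 683 nt with a span of 10 kb or more on chromosome 3 (chr3:83052724-83134363), measured 7.44, 6.56 and 6.43 FPKM in Con against 11.9, 12.2 and 9.77 FPKM in HG/PA (log2 fold change 0.72, SE 0.13; adjusted p = 0.047).

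The fourth, the unspliced ENSRNOT00000076715 (2051 nt, chr13:78997305-78999355), fell. It measured 7.44, 6.79 and 8.41 FPKM in Con against 4.55, 4.74 and 4.44 FPKM in HG/PA (log2 fold change -0.71, SE 0.13; limma, adjusted p = 0.049). Its position overlaps the higher-coordinate end of the 4245-nt ENSRNOT00000089351, which had 246, 275 and 205 fragments in Con against 154, 125 and 155 in HG/PA. NONRATT008388.2 (1352 nt) starts where ENSRNOT00000076715 does. It had 82, 82 and 77 fragments in Con against 48, 44 and 48 in HG/PA (log2 fold change -0.79; limma, adjusted p = 0.054). All 3 transcripts were lower in every HG/PA sample. Strand was not used here, so whether reads in the shared stretch could have been assigned to more than 1 of them is not known. For each of the 4, leaving out any 1 sample raised the adjusted p above the threshold, with values of 0.066 to 0.146 in all, and the sign stayed the same. Without a variance trend the adjusted p of the 4 was 0.13 to 0.18, and with limma-voom that of the 3 rises was 0.051 to 0.111. ENSRNOT00000076715 also lost its call after rescaling by the median of ratios (log2 fold change -0.58, adjusted p = 0.092) and after quantile normalization (adjusted p = 0.098).

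**Figure D4:**
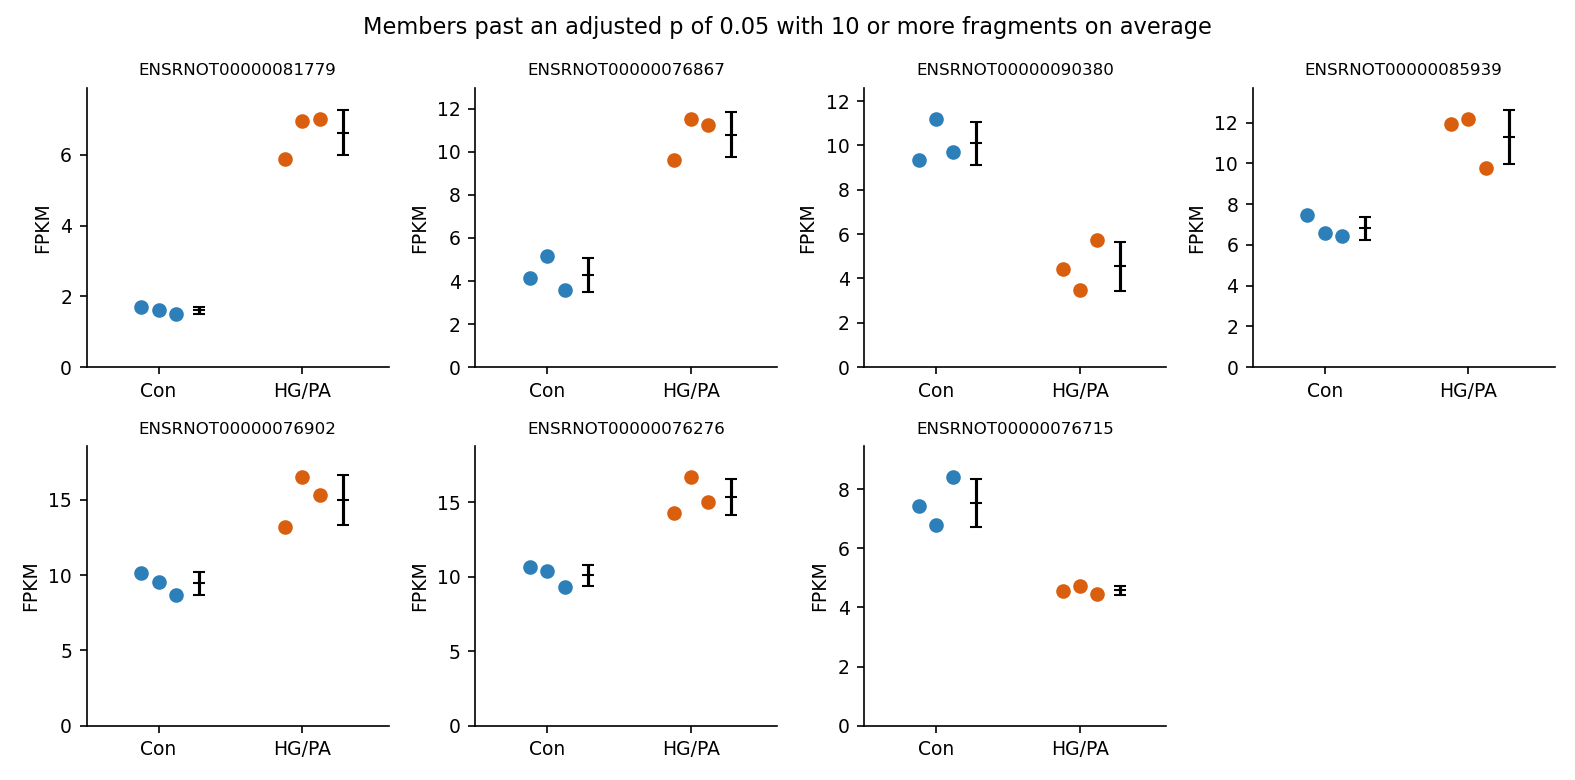
FPKM per sample in Con (blue) and HG/PA (orange) for the 7 members with an adjusted p under 0.05 and 10 or more fragments on average; each point is 1 sample, the black bars give the mean and SD (n = 3), and every axis starts at 0. The groups do not overlap in any panel, and the change ranges from a 4.12-fold rise of ENSRNOT00000081779 to the fall of ENSRNOT00000090380 from 10.1 to 4.54 FPKM.

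Another 5 members with 10 or more fragments passed a fold change of 2 at an unadjusted p only. ENSRNOT00000088632 on chromosome 16 had 14, 18 and 13 fragments in Con against 37, 23 and 47 in HG/PA (log2 fold change 1.11, SE 0.33; limma, adjusted p = 0.15). ENSRNOT00000078831 on chromosome 7 had 8, 9 and 11 fragments in Con against 23, 28 and 21 in HG/PA (log2 fold change 1.06, SE 0.31; adjusted p = 0.14). ENSRNOT00000086786 on chromosome X had 35, 38 and 32 fragments in Con against 14, 24 and 16 in HG/PA (6.57 ± 0.69 and 3.29 ± 0.84 FPKM; adjusted p = 0.062). In all 3 the groups were separate, and none held after adjustment. The other two, ENSRNOT00000079074 and ENSRNOT00000077876, share their position with another member and are described with their loci.

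Most well covered members moved little. Of the 82 with 50 fragments or more, 63 had a log2 fold change between -0.5 and 0.5, and 3 had one of 1 or more in size. The smallest differences were those of ENSRNOT00000085478 on chromosome 8 (0.712 ± 0.060 and 0.712 ± 0.053 FPKM), ENSRNOT00000084817 on chromosome 1 (4.09 ± 0.61 and 4.05 ± 0.18 FPKM) and ENSRNOT00000075125 on chromosome 15 (16.4 ± 0.93 and 16.5 ± 1.77 FPKM), in Con and HG/PA respectively (SD, n = 3). They were selected for a small difference, so the values are a description. The longest member, ENSRNOT00000081689, measured 0.746 ± 0.089 FPKM in Con against 0.678 ± 0.106 in HG/PA (limma, adjusted p = 0.87), and the widest, ENSRNOT00000057756, had 2, 9 and 2 fragments in Con against 2, 11 and 9 in HG/PA (adjusted p = 0.74). Fragments of the widest member thus varied as much within a group as between the groups. The widest member overlaps ENSRNOT00000076831, which held 84.7% to 96.9% of the fragments of their locus. The sums of the locus were 51, 59 and 41 in Con against 64, 77 and 87 in HG/PA. Their log2 ratio was 0.56 after division by the totals and was not tested.

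The median log2 fold change of the tested members was -0.04, against -0.12 for the tested NONCODE transcripts. From 0.1 to 1 FPKM the medians were -0.02 for both, from 1 to 10 FPKM they were -0.15 for Ensembl and -0.16 for NONCODE, and at 10 FPKM or more they were 0.05 and -0.08. Below 0.1 FPKM only 31 members could be tested, with a median of -0.04 against 0.14. By structure, the medians were -0.08 for members of 10 kb or more, -0.06 for those under 10 kb and 0.10 for the unspliced, and the NONCODE values were -0.09, -0.12 and -0.12. After rescaling by the median of ratios the medians over all levels were 0.05 for Ensembl and 0.01 for NONCODE, so the sign of the median depends on the scaling. These medians were not tested.

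Some members shared a position. When overlapping spans of members were merged without regard to strand, the 682 transcripts formed 624 loci. Of these, 573 held 1 transcript and 51 held several: 45 held 2, 5 held 3 and 1 held 4. In 12 of these loci all transcripts had the same start and end and differed only in length, as splice variants do. Of the 51 loci, 29 had 20 or more fragments in sum. In 27 of these 29, the summed fragments varied less between the samples of a group than the median transcript of the locus did, with a median SD of 0.200 for the sums and 0.389 for the transcripts (log2 of fragments + 1). A sum holds more fragments than its parts and so less counting noise, so a steadier sum is partly given in advance. Whether fragments moved between the transcripts of a locus was not tested. In 6 of the 29 loci the share of the leftmost transcript ranged over more than 30 percentage points between samples.

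The split between transcripts was least stable at chr15:98619241-98621413, where ENSRNOT00000080938 (1196 nt) and ENSRNOT00000088090 (1303 nt) have the same ends. ENSRNOT00000080938 had 12, 34 and 0 fragments in Con against 0, 0 and 13 in HG/PA, and ENSRNOT00000088090 had 20, 1 and 41 in Con against 25, 43 and 31 in HG/PA. The sums were 32, 35 and 41 in Con against 25, 43 and 44 in HG/PA, which overlapped, so the locus as a whole was similar in the samples while the share on the first transcript ranged from 0% to 97.1%. ENSRNOT00000076124 and ENSRNOT00000076282 at chr4:32333356-32381501 behaved alike, with 0% to 97.0% on the first and sums of 12 to 33 fragments.

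At chr19:39502153-39537050, 1 of a pair of transcripts passed the unadjusted threshold. ENSRNOT00000077876 (1350 nt) had 71, 42 and 41 fragments in Con against 12, 27 and 31 in HG/PA (log2 fold change -1.16, SE 0.37; limma, adjusted p = 0.18). Its partner with the same ends, ENSRNOT00000090255 (1296 nt), had 38, 41 and 67 fragments in Con against 55, 49 and 41 in HG/PA (2.93 ± 1.06 and 2.84 ± 0.48 FPKM). The sum of the pair was 109, 83 and 108 in Con against 67, 76 and 72 in HG/PA, a log2 ratio of -0.51 after division by the totals. The sum was therefore lower in each HG/PA sample, by less than the first transcript alone.

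**Figure D5:**
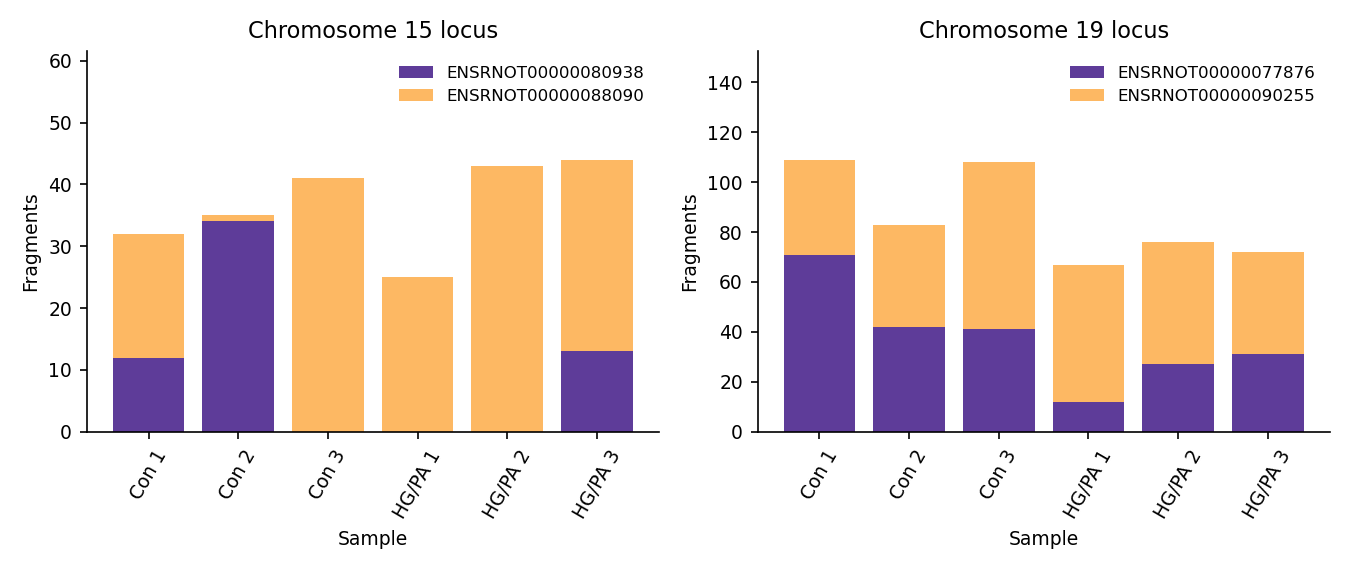
Fragments per sample at the 2 loci, stacked by transcript, with the height of a bar as the sum of the locus. At the chromosome 15 locus the sums lie between 25 and 44 fragments while the purple part ranges from 0 to 34; at the chromosome 19 locus the sums are 83 to 109 in Con against 67 to 76 in HG/PA.

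Sums moved in the same direction as their transcripts at other loci. At chr13:78976154-78999355, the position of ENSRNOT00000076715 and ENSRNOT00000089351, the sums were 456, 449 and 421 fragments in Con against 272, 258 and 275 in HG/PA, a log2 ratio of -0.75 after division by the totals. At chrX:22369521-22399901, ENSRNOT00000086786 and ENSRNOT00000082634 summed to 56, 58 and 49 in Con against 26, 36 and 33 in HG/PA, a log2 ratio of -0.81. At chr3:83052724-83134363, ENSRNOT00000085939 and the sparse ENSRNOT00000092216 summed to 73, 58 and 58 in Con against 108, 120 and 95 in HG/PA, a log2 ratio of 0.75. The groups were separate at all 3 loci, which were chosen because 1 of their transcripts had passed a threshold. The 4-transcript locus at chr1:134873400-134887841 had sums of 401, 355 and 379 in Con against 388, 439 and 446 in HG/PA, which overlapped.

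ENSRNOT00000079074 (215 nt) and ENSRNOT00000084803 (214 nt) at chr20:45357179-45357393 differ by 1 nt at 1 end. ENSRNOT00000079074 had 8, 7 and 11 fragments in Con against 14, 36 and 25 in HG/PA (log2 fold change 1.39, SE 0.34; limma, adjusted p = 0.094). ENSRNOT00000084803 had 10 fragments in HG/PA 1 and none in the other samples. Reads from near-identical models on the same strand cannot be assigned with certainty, and strand was not used here. The sums were 8, 7 and 11 in Con against 24, 36 and 25 in HG/PA. The sum was thus higher in each HG/PA sample, and it was not tested.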

How the data were processed

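Strand-specific libraries of total RNA were sequenced on an Illumina instrument. According to the study's methods, reads were filtered with seqtk, mapped to Rnor_6.0 with HISAT2 and quantified with StringTie. The deposited files give FPKM per lncRNA transcript and sample, with position and length, normalized by the authors to length and mapped fragments. The fragment counts behind them were recovered here as FPKM × length, and 100% of the values came out whole within 0.1 of a fragment. Gene names, strand and exons were not used here.

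All 18649 rows were tested together with limma 3.58.1 (lmFit, eBayes with trend; R 4.3.3) on log2(FPKM + 0.1), keeping rows with 0.1 FPKM or more in at least 3 of 6 samples, with Benjamini-Hochberg adjustment and without a replicate block. The code was tested on simulated data. In that simulation only transcripts with a mean of 10 or more fragments were changed, and the spread between replicates was a fixed setting. It therefore does not cover the sparse calls. Single values per sample were compared with exact two-sided permutation tests (Python 3.11.15, scipy 1.17.1). The main test used FPKM as deposited, and the recovered fragments served for an alternative, limma-voom. Replicates differed by more than counting noise (chi-square per degree of freedom of 7.57 to 10.7), so none was treated as a duplicate. Limits of 3 fragments cover counting error only.

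Transcripts named are those past a fold change of 2 and an adjusted p under 0.05, then by separation and unadjusted p up to 5 per direction. The 10 most abundant, the longest and the widest are named too. So are the 3 with the smallest absolute log2 fold change among members with 50 or more fragments. Others were picked after their values were seen. The set, its groups and the tests were chosen with earlier results of these data known. Alternatives were other pseudocounts, filters, scalings and variance models, limma-voom on fragments, a replicate block, and each sample left out.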

Additional observations from a re-analysis of the deposited data

How the results depend on the processing

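The count of 9 members past a fold change of 2 and an adjusted p under 0.05 became 3 with a pseudocount of 1, 4 with a filter of 1 FPKM in 3 samples, and 1 or 2 when any 1 sample was left out. It was 3 when only members with 10 or more fragments were counted, a choice made after the data were seen. Apart from the fits with a replicate block, which gave fewer and are described below, the other 7 alternatives gave 6 to 12. In the fit without a variance trend, with 12, ENSRNOT00000076867 and ENSRNOT00000090380 were not among them. The count of 52 at an unadjusted p became 4 with a pseudocount of 1, 10 with the filter of 1 FPKM and 8 at 10 or more fragments, and ranged from 34 to 48 with 1 sample left out. Leaving out a Con sample gave 28 to 30 upregulated and 6 to 18 downregulated members, and leaving out an HG/PA sample 14 to 16 and 22 to 25. The filter still required 3 samples in these fits, and 497 to 508 members were tested. A transcript seen only in the group that lost a sample could not be tested. Part of the lower counts and of the change in split was therefore set in advance by the filter. Rescaling by the median of ratios changed the split from 30 and 22 to 37 and 17, and that of the adjusted calls from 5 and 4 to 6 and 3.

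With the replicate number as a replicate block, limma called 0 members, with 42 past the unadjusted p and fold change, and limma-voom called 1 with the block and 6 without it. Same-numbered samples did not deviate together over all tested rows (correlation of deviations -0.032 to -0.014 over the 3 pairs). Pairs with different numbers had -0.018 to 0.035. Such correlations cannot tell whether same-numbered samples were cultured or prepared together, so the fits with the block are not set aside. ENSRNOT00000081779 had an adjusted p of 0.063 with the block and stayed under 0.05 in the other 15 alternatives.

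The median log2 fold change of -0.0437 became -0.0992 with the filter of 1 FPKM, 0.0478 after rescaling by the median of ratios and 0.00641 after quantile normalization, and ranged from -0.0989 to -0.0175 with 1 sample left out. The difference of 0.249 percentage points in the Ensembl share turned to -0.00274 without the 3 members above 1000 FPKM, and was 0.0166 without the most abundant row of each source, 0.112 for rows without overlap, 0.0891 without HG/PA 2 and 0.387 without HG/PA 1. The log2 ratio of the Ensembl to the NONCODE median stayed between -2.17 and -2.11 with 1 sample left out, where 5 samples cannot give a p below 0.0625. It was -1.65 for rows with 0.1 FPKM or more in 3 samples, -2.40 for rows without overlap and -2.31 for rows of similar length. Depth limits 487 of the 682 members, which had fewer than 10 fragments.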
